A study of Homo sapiens with 18 samples.

Results

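The response of LNCaP cells to the synthetic androgen R1881 under a control siRNA was examined in 6 of the 18 RNA libraries of the series. The 6 libraries were chosen by their labels alone: 3 from cells given vehicle (96% ethanol) and 3 from cells given 10 nM R1881. LNCaP is an established line grown from a lymph node metastasis of human prostate cancer, and it stands here as 1 line. All 6 cultures received a pool of non-targeting siRNAs and were kept for 48 h in medium with 5% charcoal-stripped serum, which is low in steroids, before 24 h of treatment, so the vehicle libraries are androgen-deprived cells and not cells in ordinary serum. Of the other 12 samples of the study, which received siRNA pools against the transcription factors KLF5 or NFYA, 11 were used here only where the hormone response was compared between siRNAs. The labels do not state whether the 3 replicates of a group are independent cultures, and p-values therefore cover only the spread between these libraries, which may be technical.

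The androgen receptor is a hormone-bound transcription factor. On binding androgen it leaves its chaperones, enters the nucleus and binds DNA as a dimer at androgen response elements, which are built from hexamers of the form AGAACA, most of them far from gene starts and next to sites of pioneer factors such as FOXA1. In the prostate it maintains the secretory luminal cell, which makes proteases, zinc-rich citrate fluid and lipids, and it restrains other programmes of the same cell.

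Promoter sequences of 3 genes, from 250 bases before to 50 bases after the start, are shown because they carry a receptor hexamer or a looser dimer element near the start of genes that moved in opposite directions. They were taken from RefSeq (GRCh38.p14), run 5′ to 3′ on the strand of the gene, and have the motif in capitals. KLK3 (chr19:50854665-50854964, plus strand), which encodes prostate-specific antigen, holds AGAACA starting 170 bases before the start. UGT2B15 (chr4:68670603-68670902, minus strand), which encodes an androgen-conjugating enzyme, holds the same hexamer 172 bases before the start. GATA2 (chr3:128493152-128493451, minus strand), which encodes a pioneer factor of the receptor, holds a match to GNACANNNTGTNC 183 bases before the start.
KLK3: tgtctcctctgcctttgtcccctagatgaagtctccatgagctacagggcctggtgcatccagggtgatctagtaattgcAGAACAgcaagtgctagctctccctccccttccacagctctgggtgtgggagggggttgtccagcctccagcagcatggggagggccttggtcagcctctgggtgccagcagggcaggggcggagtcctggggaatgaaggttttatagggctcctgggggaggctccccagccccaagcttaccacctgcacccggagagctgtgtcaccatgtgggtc
UGT2B15: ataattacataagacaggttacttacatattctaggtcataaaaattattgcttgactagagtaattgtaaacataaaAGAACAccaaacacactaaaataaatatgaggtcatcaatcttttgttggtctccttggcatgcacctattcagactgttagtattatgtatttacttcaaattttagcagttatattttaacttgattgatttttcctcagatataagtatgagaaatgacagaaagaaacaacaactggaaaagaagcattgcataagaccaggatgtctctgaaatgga
GATA2: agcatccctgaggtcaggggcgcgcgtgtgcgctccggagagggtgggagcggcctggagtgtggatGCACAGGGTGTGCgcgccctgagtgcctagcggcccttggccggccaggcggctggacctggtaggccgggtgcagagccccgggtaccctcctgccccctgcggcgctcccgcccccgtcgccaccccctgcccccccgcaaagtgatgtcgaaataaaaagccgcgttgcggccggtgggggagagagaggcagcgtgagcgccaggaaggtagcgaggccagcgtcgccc
Of 35116 RefSeq promoters of this length, 14.8% hold AGAACA on either strand, 0.39% hold GNACANNNTGTNC and 1 holds the full palindrome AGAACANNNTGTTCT; the looser form overlaps the palindrome, and the palindrome contains the hexamer. Promoters were found for 78.3% of the tested genes, too few for a comparison of motifs between gene sets, and none was made. A match is a description of these letters, and binding of the receptor was not measured here.

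Depth and the makeup of the counts were alike within the groups, and no measure of read or RNA quality was used here. The vehicle libraries held 6174633, 6411869 and 6209940 estimated counts and the R1881 libraries 5759057, 5776649 and 5581124. The leading principal component of the 6 libraries held 83.9% of the variance and parted the treatments, and the next held 4.69% and parted R1881 replicates 2 and 3. Mitochondrially encoded transcripts took 1.77 to 2.068% of counts in vehicle and 1.329 to 1.436% with R1881, and transcripts annotated as retained introns 2.154 to 2.232% and 1.96 to 1.988%. Without mitochondrial and rRNA-like genes 3984 genes rose and 3969 fell, 923 and 1208 of them by at least 2-fold, close to the counts with all genes given below; the part of retained introns was not tested. Summed levels of 15 prostate luminal markers were 6979 to 6999 CPM (counts per 1000000, scaled between libraries) in vehicle and 20960 to 21248 with R1881. Of 8 basal markers 2, KRT5 and TP63, had no counts, and the sums were 78 to 83.7 and 58.5 to 73.3 CPM. Most of these sums came from ITGA6 (44.7 to 54.4 CPM in vehicle and 44.8 to 53.7 with R1881) and DST (22.3 to 25.9 and 11.6 to 16.2). The basal keratins KRT14 and KRT15 were at most 0.378 CPM in any library. Of 11 fibroblast and smooth muscle markers 2 had none, with sums of 26.1 to 27.2 and 17.9 to 22.7. Neuroendocrine (7), endothelial (7) and blood (9) markers summed to 1.72 to 12.5 CPM in vehicle and 1.89 to 8.06 with R1881, with 3, 3 and 4 of them without counts. Markers of the luminal cell were thus present in all libraries. Those of neuroendocrine, endothelial and blood cells were below 4 CPM in every library except VWF, an endothelial gene (8.22 to 9.21 CPM in vehicle and 2.27 to 3.56 with R1881), and CD68, a macrophage gene (3.72 to 4.93 and 7.37 to 7.68).

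R1881 moved most measured genes, and a small set of them by large factors. Of 12601 genes tested, 7932 (62.9%) passed at an adjusted p under 0.05 by edgeR's quasi-likelihood test with Benjamini-Hochberg adjustment; 4051 (32.1%) rose and 3881 (30.8%) fell. At least 2-fold changes were found in 2114 genes (16.8%), 941 upward (7.47%) and 1173 downward (9.31%), while at 8-fold there were 136 upward and 83 downward and at 32-fold 41 and 15. The 3 R1881 libraries lay entirely above the 3 vehicle libraries for 34.5% of genes and entirely below for 33.2%. For 1817 genes (14.4%) the 95% interval of the change lay inside 1.2-fold in either direction, so their change, if any, was bounded as small. Genes that changed by more cannot be in this count, which therefore does not measure precision over all genes. A gene that neither passed nor is among the 1817 was not shown to be unchanged. Genes at least 2-fold higher took 6.28 to 6.3% of all counts in the vehicle libraries and 18.3 to 18.5% in the R1881 libraries, and genes at least 2-fold lower took 4.76 to 4.85% and 1.35 to 1.38%.

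This gain in counts bears on scaling. Trimmed-mean scaling set the median log2 change of all genes at -0.01, and 51.07% of the genes that passed were higher; with plain library totals the median was -0.247 and 28.21% of passed genes were higher, and in a fit of log2(TPM + 1), where TPM is transcripts per 1000000, the median was -0.149 and 37.25% were higher. Changes below are relative to the trimmed-mean scaling, and list counts are followed by those under library totals. In bulk libraries a changed number of cells in a state and a changed amount of RNA per cell cannot be told apart.

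The genes that took the most additional counts encode luminal enzymes and keratins as well as the classic receptor targets. The 12 largest increases rose from 3556 to 37119 CPM in sum. ABHD2, a serine hydrolase that splits acylglycerols, had 608, 610 and 601 CPM in vehicle and 4649, 4657 and 4565 with R1881. The sorbitol dehydrogenase gene SORD had 406, 425 and 415 CPM in vehicle and 3383, 3454 and 3533 with R1881. NCAPD3, a subunit of the condensin II complex, had 104, 97.6 and 98.1 CPM in vehicle and 2071, 2100 and 2027 with R1881. In these 3 genes every R1881 library was above every vehicle library, with log2 changes of 2.93 (SE 0.0407), 3.06 (SE 0.0384) and 4.37 (SE 0.0414) and adjusted p of 8.33e-30 to 1.63e-26 by edgeR. Others were ODC1, KLK3, KRT8, FKBP5, TMPRSS2, ACSL3, NDRG1 and KRT18. CPM is not corrected for transcript length; on the TPM scale 8 of the 12 were also among the 12 largest increases, with KLK3 going from 76.9 to 4237 TPM and ODC1, the first enzyme of polyamine synthesis, from 356 to 2854 TPM.

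**Figure D1:**
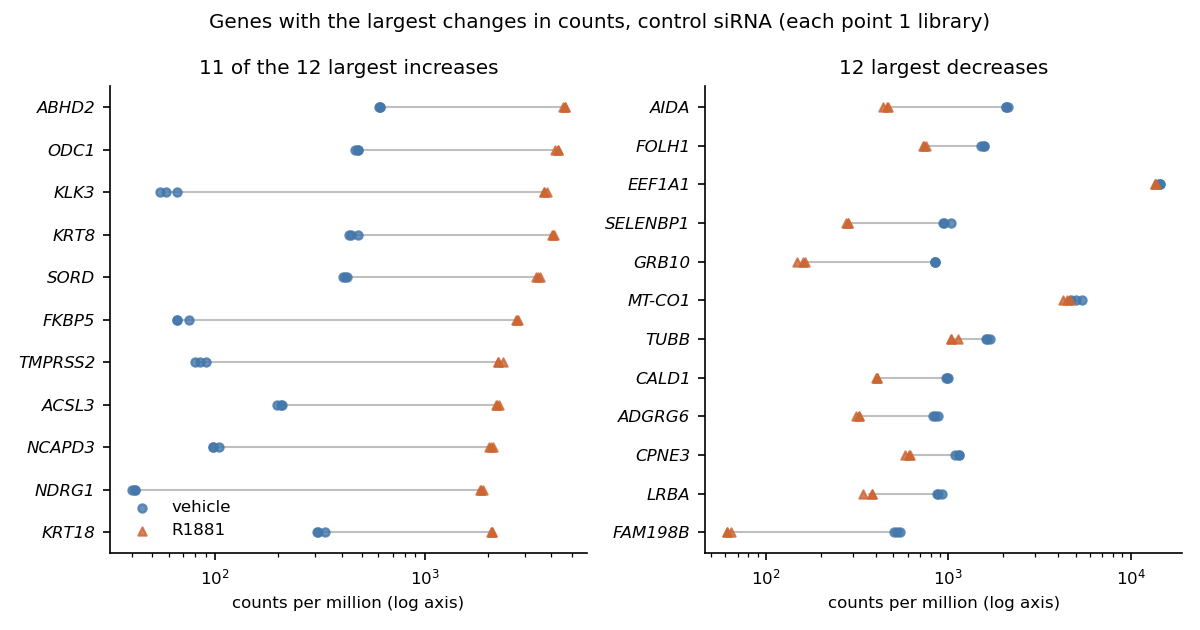
CPM (log axis) in each of 6 control siRNA libraries for 11 of the 12 genes with the largest increases (left) and the 12 with the largest decreases (right) in mean CPM; circles are vehicle libraries, triangles R1881 libraries, and grey lines join the group means. The 2 treatments stand far apart for ABHD2, KLK3, NCAPD3 and FAM198B and close together for EEF1A1 and MT-CO1.

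The largest losses of counts were in genes of different roles. AIDA, an axin-interacting inhibitor of JNK activation, had 2077, 2135 and 2071 CPM in vehicle and 463, 438 and 465 with R1881 and fell by 2.20 on the log2 scale (SE 0.0356). The folate hydrolase FOLH1, known as prostate-specific membrane antigen, had 1577, 1565 and 1505 CPM in vehicle and 758, 725 and 737 with R1881 (log2 -1.06), and the selenium-binding protein SELENBP1 933, 949 and 1029 CPM in vehicle and 283, 276 and 282 with R1881 (log2 -1.79). GRB10, an adaptor that restrains insulin and IGF receptors, had 846, 843 and 850 CPM in vehicle and 163, 159 and 148 with R1881 (log2 -2.43), and the Golgi membrane protein gene FAM198B 525, 544 and 505 CPM in vehicle and 64.8, 61.1 and 61.1 with R1881 (log2 -3.07). In these 5 genes no R1881 library reached the level of any vehicle library, and all passed edgeR's test (adjusted p 7.15e-26 to 5.92e-19). The tubulin gene TUBB (log2 -0.63), the actin- and calmodulin-binding CALD1 (-1.28), the adhesion receptor ADGRG6 (-1.41), the copine CPNE3 (-0.91) and the vesicle protein LRBA (-1.28) also fell. The elongation factor EEF1A1 went from 14410 to 13714 CPM, a log2 change of -0.07, and MT-CO1, a mitochondrial oxidase subunit, from 5044 to 4451 (-0.18); both entered by their abundance. The call for EEF1A1 was lost with no filter (adjusted p = 0.137 by edgeR) and on leaving out any 1 library other than vehicle replicate 1 (0.0544 to 0.0952). On the TPM scale 3 of the 12, AIDA, EEF1A1 and MT-CO1, were also among the 12 largest decreases.

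Genes were then grouped in 29 lists by known role, holding 1827 genes, of which 1434 were tested. Their counts are descriptions, to be read against the 32.1% of all tested genes that rose and the 30.8% that fell, and at 2-fold against 7.47% and 9.31%. Under scaling by library totals the background was 19.7% higher and 50.1% lower, and counts of list members given for library totals are to be read against those. The highest share of rises was in the vesicle coats between endoplasmic reticulum (ER) and Golgi (60 of 63), and the highest share of falls in G1/S control (36 of 61). At adjusted p under 0.05 alone, lists such as the receptor's coregulators, apoptosis regulators and JAK-STAT signalling had shares near the background in both directions. Their shares changed at least 2-fold in either direction were 5%, 27.5% and 36.5%, in that order, against 16.8% of all tested genes.

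**Figure D2:**
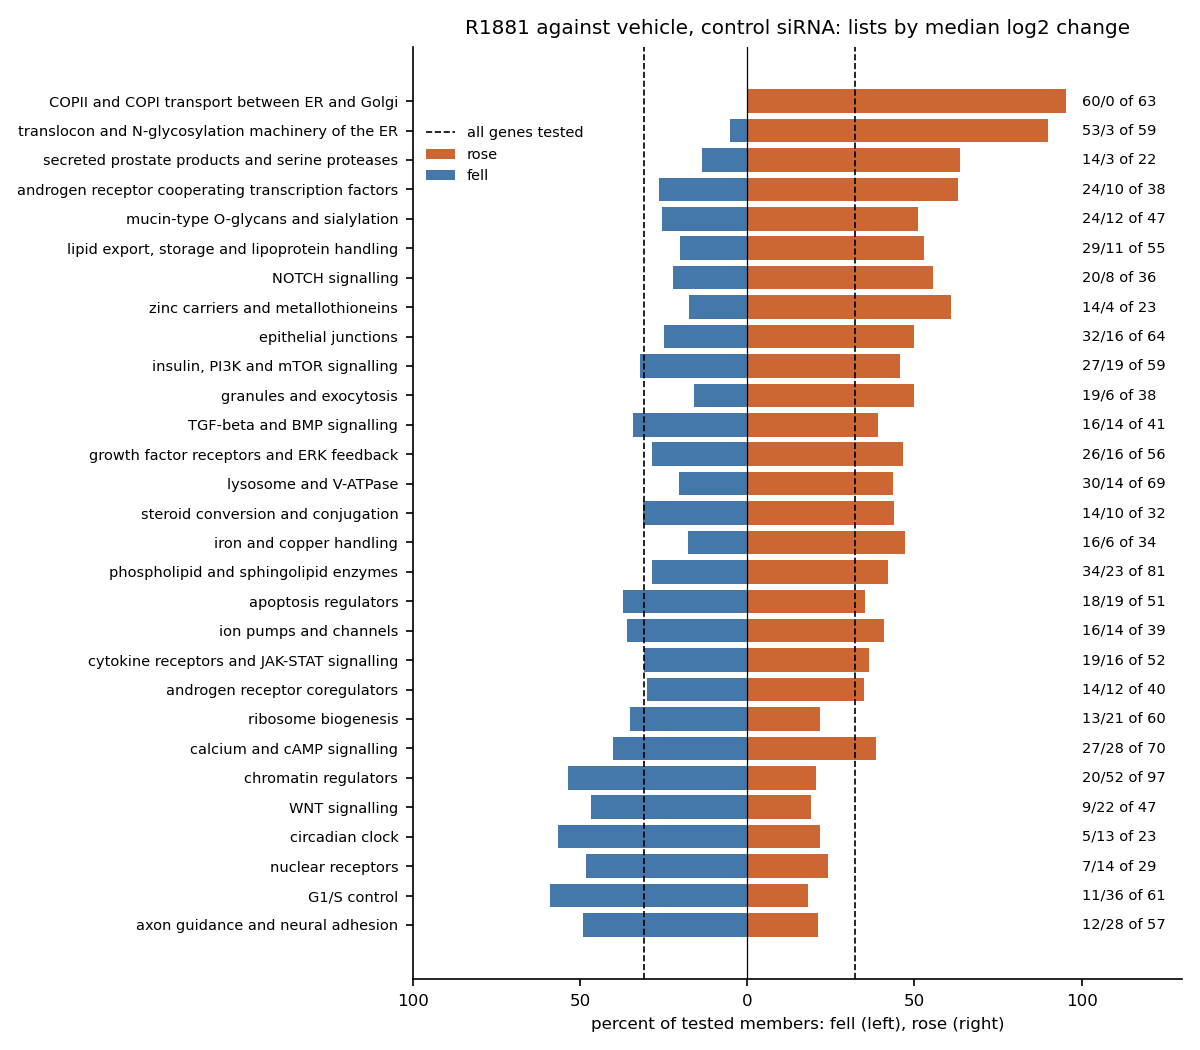
Percent of tested members of 29 gene lists that rose (orange, right) or fell (blue, left) with R1881 at adjusted p under 0.05, ordered by median log2 change, with the counts risen and fallen of the number tested at the right edge. Dashed lines mark the shares over all 12601 genes, 32.1% risen and 30.8% fallen; the ER and Golgi lists stand at the top and axon guidance at the bottom.

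Among nuclear receptors, the family of hormone-bound transcription factors, falls outnumbered rises. Of 29 tested members 7 rose and 14 fell (median log2 -0.303); library totals gave 6 and 19 (median -0.54). The orphan receptor NR4A1 had 7.62, 6.04 and 6.54 CPM in vehicle and 60.3, 62.2 and 56.8 with R1881, without overlap, and rose with log2 3.15 (SE 0.11). The thyroid hormone receptors moved apart: THRB rose from 64.9 to 171 CPM (log2 1.40) while THRA fell from 45.4 to 21.8 (-1.06). The retinoic acid receptor RARG (18 to 8.88 CPM, -1.02), the mineralocorticoid receptor NR3C2 (24.2 to 13.7, -0.82) and the vitamin D receptor VDR (28.5 to 17.3, -0.72) fell, and RXRB, a common dimer partner, was at 44 and 45.7 CPM and did not pass (adjusted p = 0.579).

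Few of the receptor's coactivators and corepressors changed 2-fold. Of 40 tested members 14 rose and 12 fell (median log2 -0.0186); library totals gave 9 and 27 (median -0.256). By the trimmed-mean scaling 1 member was at least 2-fold higher and 1 at least 2-fold lower. The histone demethylase KDM4B had 64.1, 69.3 and 68.8 CPM in vehicle and 146, 134 and 142 with R1881 and rose with log2 1.06 (SE 0.0562). NCOA7, an oxidation-resistance protein first described as a receptor coactivator, had 111, 99.6 and 103 CPM in vehicle and 29.7, 28.9 and 30.8 with R1881 and fell by 1.81 (SE 0.0685). In both genes the groups did not overlap. The p160 coactivators NCOA2 (-0.60) and NCOA3 (-0.49) fell, NCOA1 was at 149 and 140 CPM (adjusted p = 0.0753, and 8.25e-07 to 0.0485 as lower under 5 of the alternatives), and the corepressor NCOR1 rose (0.56).

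Transcription factors known to work beside the receptor rose more often than they fell. Of 38 tested members 24 rose and 10 fell (median log2 0.501); library totals gave 19 and 12 (median 0.264). With trimmed-mean scaling 16 members were at least 2-fold higher and 2 at least 2-fold lower. The leucine-zipper factor MAF had 9.71, 11.6 and 8.77 CPM in vehicle and 224, 236 and 235 with R1881 (log2 4.52, SE 0.0755). The ETS factor SPDEF, a factor of secretory epithelia, had 66.8, 62.7 and 60 CPM in vehicle and 547, 549 and 512 with R1881 (log2 3.08, SE 0.0441). R1881 libraries of both genes lay far above vehicle libraries, with adjusted p from 2.63e-26 to 5.52e-25 by edgeR. CREB3L4, an ER-anchored factor of the prostate, rose from 81.1 to 372 CPM, and XBP1, which drives secretory capacity, from 181 to 385. GATA2, whose promoter is printed above, had 284, 298 and 286 CPM in vehicle and 147, 150 and 139 with R1881 and fell by 0.99 (SE 0.0465); HOXA10 (34.9 to 13 CPM) fell as well. The pioneer factor FOXA1 rose from 495 to 613 CPM (log2 0.31) and HOXB13, a homeobox partner of the receptor, fell from 487 to 409 (-0.25); FOXA1 stood at 0.07 and HOXB13 at -0.49 under library totals.

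Enzymes that make, convert and conjugate steroids moved in both directions, with the largest contrasts inside the UGT2B family, which attaches glucuronic acid to androgens. Of 32 tested members 14 rose and 10 fell (median log2 0.0901); library totals gave 12 and 16 (median -0.147), and the median was -0.0113 in the TPM fit. UGT2B15 had 185, 186 and 191 CPM in vehicle and 18.7, 19.3 and 19.1 with R1881, and UGT2B17 had 286, 286 and 275 CPM in vehicle and 42.5, 38 and 35.3 with R1881; every R1881 library was below every vehicle library, and the log2 changes were -3.29 (SE 0.0654) and -2.87 (SE 0.0566). Their neighbours UGT2B11, with 17.3, 16.1 and 18.9 CPM in vehicle and 104, 114 and 117 with R1881, and UGT2B28, with 0.896, 0.862 and 1.49 CPM in vehicle and 45, 48.4 and 42.9 with R1881, went the other way without overlap (log2 2.68 and 5.37). These genes are close copies of each other, so estimated counts may be divided wrongly between them. SRD5A1, which reduces testosterone to dihydrotestosterone, rose from 40 to 96.5 CPM, the steroid sulfatase STS from 22.7 to 47, and UGDH, which supplies the glucuronic acid, from 80 to 163 (log2 1.27, 1.05 and 1.02). HSD17B10 and HSD17B12 were at log2 -0.03 and -0.03 and did not pass (adjusted p = 0.647 and 0.718).

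Secreted products of the gland and serine proteases rose more often than they fell. Of 22 tested members 14 rose and 3 fell (median log2 0.541); library totals gave 12 and 4 (median 0.305); of 45 listed genes 22 passed the filter on low counts, and the others are not covered by this count. The zinc-binding glycoprotein AZGP1 had 3.44, 3.16 and 3.42 CPM in vehicle and 71.6, 69 and 76.7 with R1881 (log2 4.43, SE 0.127). The groups were far apart. ORM2, a plasma carrier protein whose sequence is close to that of ORM1, held 1 count over the vehicle libraries and 192 over the R1881 libraries, a ratio of 248 (95% counting interval 44 to 9860). SERPINI1, a serine protease inhibitor, had 35.1, 38.2 and 40.9 CPM in vehicle and 5.1, 5.43 and 4.88 with R1881, and the phospholipase PLA2G2A 30, 27.5 and 24.7 CPM in vehicle and 5.67, 4.31 and 3.32 with R1881; both fell without overlap (log2 -2.88 and -2.62). The protease inhibitor gene SPINT2 was at 422 and 424 CPM (adjusted p = 0.934), and clusterin, CLU, at 26.5 and 27.3 (adjusted p = 0.756).

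The machinery that takes nascent proteins into the ER and attaches N-glycans rose almost as a whole. Of 59 tested members 53 rose and 3 fell (median log2 0.738); library totals gave 42 and 5 (median 0.501). By the trimmed-mean scaling 18 members at least doubled. SSR3, a translocon-associated subunit, had 153, 153 and 147 CPM in vehicle and 569, 575 and 585 with R1881 (log2 1.93, SE 0.0376). SEC11C, a subunit of the signal peptidase, had 66.2, 75.6 and 71.6 CPM in vehicle and 242, 236 and 246 with R1881 (log2 1.76, SE 0.0577), and SPCS3, of the same complex, rose from 81.3 to 250 CPM. In all 3 the groups were separate. The channel subunits SEC61A1, SEC61B and SEC61G rose with log2 1.08, 1.28 and 1.44, and the oligosaccharyltransferase subunits STT3A, RPN1, DDOST and STT3B with 1.18, 1.06, 0.70 and 0.52 (STT3B had adjusted p = 0.119 by limma in the TPM fit). The 3 falls were in SRP9, of the signal recognition particle (-0.13), and in the glucosyltransferases ALG6 (-0.35) and ALG10 (-0.50, with adjusted p = 0.0562 without R1881 replicate 2), which add glucose to the lipid-linked sugar. The list held 0.768 to 0.774% of all counts in vehicle and 1.17 to 1.19% with R1881.

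Vesicle coats between the ER and the Golgi showed the most uniform change of the 29 lists. Of 63 tested members 60 rose and 0 fell (median log2 0.965); library totals gave 55 and 2 (median 0.728). By the trimmed-mean scaling 26 at least doubled. SEC24D, a cargo adaptor of the COPII coat that buds from the ER, had 42.6, 38.7 and 41.9 CPM in vehicle and 293, 289 and 289 with R1881 (log2 2.82, SE 0.0513, adjusted p = 3.43e-24 by edgeR). The other adaptors SEC24B, SEC24A and SEC24C rose with log2 1.44, 1.34 and 1.15. The coat's inner shell gene SEC23B had 199, 198 and 196 CPM in vehicle and 452, 475 and 453 with R1881 and rose with log2 1.22, while its close relative SEC23A had 155, 169 and 168 CPM in vehicle and 179, 168 and 181 with R1881 and had log2 0.10, with groups that overlapped (adjusted p = 0.0485 by edgeR, 0.241 without vehicle replicate 1, 0.139 without R1881 replicate 1 and 0.159 without R1881 replicate 3); under library totals it was at -0.13. The cargo receptor LMAN1 had 189, 198 and 192 CPM in vehicle and 648, 627 and 665 with R1881 (log2 1.74, SE 0.0372), and its partner MCFD2 rose with log2 1.29. All 8 tested members of the p24 cargo receptor family (TMED genes) rose, with log2 changes from 0.20 (TMED4) to 1.69 (TMED9), and TMED4 was at -0.03 under library totals. In the COPI coat that returns proteins to the ER, COPG1 rose with log2 1.55 (SE 0.0375) and its paralogue COPG2 was at 74.5 and 80.1 CPM (log2 0.11, adjusted p = 0.142); likewise KDELR2, a receptor that retrieves ER proteins, had log2 1.61 and KDELR1 0.74. R1881 libraries did not overlap with vehicle libraries in 60 of the 63 genes, all 60 higher. The list held 1.01 to 1.03% of all counts in vehicle and 1.67 to 1.69% with R1881.

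**Figure D3:**
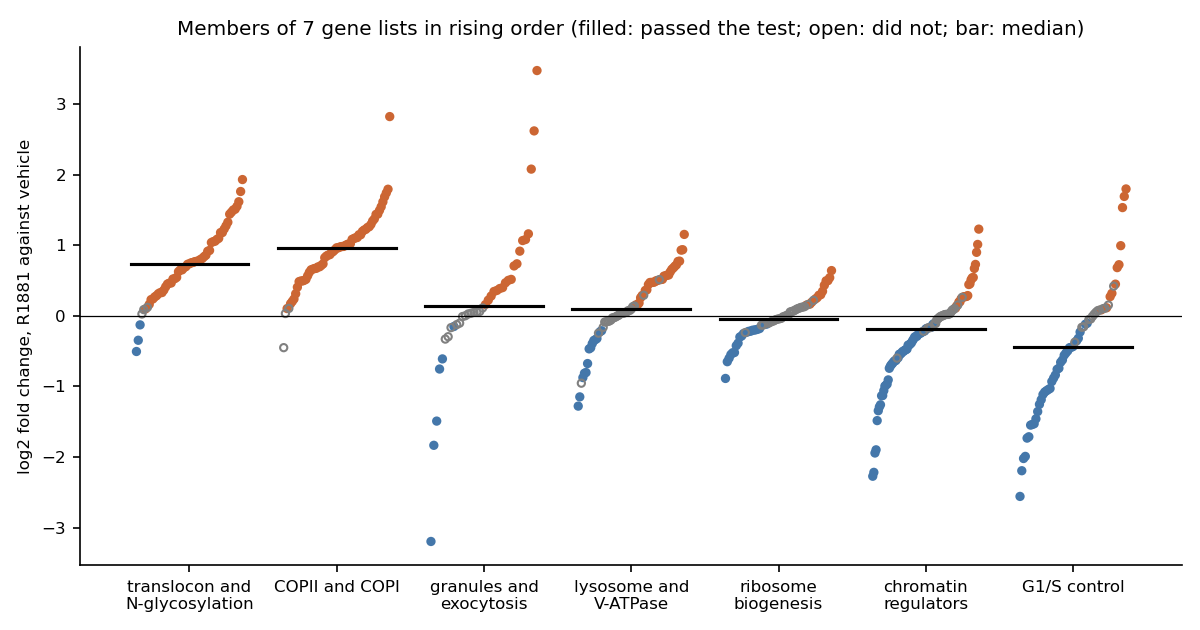
Log2 fold change with R1881 for each tested member of 7 gene lists, placed in rising order within its list; filled points passed the test (orange higher, blue lower), open points did not, and black bars are medians. The translocon and COPII lists lie almost wholly above 0, ribosome biogenesis straddles 0, and G1/S control lies mostly below.

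Later steps of the secretory route held large changes in single members. In granules and exocytosis, 19 of 38 tested members rose and 6 fell (median log2 0.136); library totals gave 14 and 14 (median -0.101), and the median was -0.013 in the TPM fit. CADPS2, which primes granules for release, had 5.83, 3.59 and 4.31 CPM in vehicle and 49.1, 48.2 and 55.8 with R1881 (log2 3.48, SE 0.134), RAB3B, a granule GTPase, had 31.2, 33.5 and 30.5 CPM in vehicle and 205, 195 and 186 with R1881 (log2 2.62, SE 0.0601), and RAB27A rose from 11.9 to 50.5 CPM. SYTL2, a RAB27 effector, had 23.2, 16.2 and 20.5 CPM in vehicle and 2.83, 1.69 and 1.95 with R1881 and fell by 3.19 (SE 0.278); the effector MYRIP fell from 80.8 to 28.7. The exocyst subunits EXOC1 and EXOC4, which tether vesicles to the plasma membrane, were at log2 -0.01 and -0.10 and did not pass (adjusted p = 0.938 and 0.09), though EXOC4 passed as lower with only the 6 control libraries (0.0464 by edgeR). For the lysosome and its proton pump, 30 of 69 tested members rose and 14 fell (median log2 0.0945); library totals gave 23 and 32 (median -0.141), and the median was -0.0715 in the TPM fit. In the trimmed-mean fit 1 member, the pump subunit ATP6V0A2 (21.6 to 48.2 CPM), was at least 2-fold higher and 2 were at least 2-fold lower, the mannosidase MANBA (48.7 to 20) and the protease CTSC (14 to 6.28).

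Enzymes that build or trim sugar chains moved in both directions. In the list named for mucin-type O-glycans and sialylation, 24 of 47 tested members rose and 12 fell (median log2 0.399). Library totals gave 22 and 17 (median 0.162). The list is wider than its name and also holds enzymes of other glycans, such as EDEM3 and FUT8. In the trimmed-mean fit 13 members were at least 2-fold higher and 4 at least 2-fold lower. ST6GALNAC1, which caps O-glycans with sialic acid, had 1.2, 0.862 and 1.04 CPM in vehicle and 83.5, 83.8 and 90.7 with R1881; the R1881 libraries were far above. Among enzymes that start O-glycans, GALNT7 rose from 47.7 to 143 CPM (log2 1.59) while GALNT3 had 171, 168 and 170 CPM in vehicle and 67.3, 68.8 and 68.1 with R1881 and fell by 1.32 (SE 0.0532). The sialic acid synthase NANS rose from 62 to 184, and EDEM3, which trims mannose from misfolded glycoproteins, had 77.2, 83.5 and 76.5 CPM in vehicle and 364, 392 and 378 with R1881 (log2 2.26, SE 0.0468). The core fucosyltransferase FUT8 fell from 37.3 to 13.2 CPM, and the core 1 synthase C1GALT1 was at 17.4 and 16.8 (adjusted p = 0.722).

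Genes of lipid export and storage rose more often than they fell, and membrane lipid enzymes moved in both directions. For export, storage and lipoprotein handling, 29 of 55 tested members rose and 11 fell (median log2 0.344); library totals gave 24 and 15 (median 0.107). The efflux pump ABCC4 had 147, 146 and 136 CPM in vehicle and 1324, 1293 and 1320 with R1881 (log2 3.20, SE 0.0449), and DBI, an acyl-CoA binding protein, had 165, 163 and 155 CPM in vehicle and 875, 920 and 882 with R1881 (log2 2.47, SE 0.0469). The lipoprotein receptor VLDLR rose from 17.2 to 60.1 CPM, whereas SORL1, a sorting receptor of the same superfamily, had 36.2, 37.7 and 34.8 CPM in vehicle and 7.56, 7.68 and 6.44 with R1881 and fell by 2.32 (SE 0.128). For phospholipid and sphingolipid enzymes, 34 of 81 tested members rose and 23 fell (median log2 0.0662); library totals gave 24 and 37 (median -0.171), and the median was -0.0745 in the TPM fit. MBOAT2, which puts fatty acids on lysophospholipids, had 99.8, 98.6 and 99.6 CPM in vehicle and 819, 817 and 831 with R1881 (log2 3.05, SE 0.0365), and the lipid phosphatase PLPP1 had 152, 151 and 159 CPM in vehicle and 966, 976 and 962 with R1881 (log2 2.65, SE 0.0365). Within sphingolipid synthesis, the desaturase DEGS1 rose from 302 to 759 CPM while SPTLC3, an alternative subunit of the first enzyme, had 30.8, 33.1 and 29.9 CPM in vehicle and 4.35, 4.87 and 4.29 with R1881 and fell by 2.79 (SE 0.129); SPTLC1, the constant subunit, was at log2 0.04 (95% interval -0.105 to 0.192, adjusted p = 0.616).

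Ion pumps and channels held large changes in both directions. For pumps and channels, 16 of 39 tested members rose and 14 fell (median log2 0.0358); library totals gave 14 and 18 (median -0.201). TRPM8, a cold-sensing cation channel of prostate epithelium, had 3.14, 4.46 and 2.23 CPM in vehicle and 70.9, 65 and 66.7 with R1881 (log2 4.35, SE 0.138), and KCNMA1, the large-conductance potassium channel, had 58.7, 67.1 and 63.2 CPM in vehicle and 343, 346 and 352 with R1881 (log2 2.46, SE 0.045). The sodium pump's beta subunit ATP1B1 fell from 606 to 323 CPM, and ATP1B3 was at log2 -0.05 (adjusted p = 0.4). The potassium channel subunit KCNS3 fell from 11.2 to 1.9 CPM. Zinc, which prostate epithelium concentrates, has its own carriers: 14 of 23 tested members rose and 4 fell (median log2 0.284); library totals gave 7 and 7 (median 0.0473). SLC39A10, an importer, had 63.9, 72 and 58.4 CPM in vehicle and 321, 320 and 312 with R1881 (log2 2.29, SE 0.0598), and SLC39A7, which releases zinc from the ER, rose from 154 to 477 CPM; the zinc store protein MT2A fell from 28.1 to 20.1. In iron and copper handling, 16 of 34 tested members rose and 6 fell (median log2 0.0889); library totals gave 11 and 15 (median -0.148), and the median was -0.0838 in the TPM fit; ferrochelatase FECH rose from 248 to 553 CPM, HFE, a regulator of iron uptake, fell from 10.9 to 4.62, and the ferritin heavy chain FTH1 was at log2 -0.03 (adjusted p = 0.569).

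Insulin and PI3K signalling genes moved in both directions. Of 59 tested members 27 rose and 19 fell (median log2 0.145); library totals gave 19 and 27 (median -0.0917), and the median was -0.0406 in the TPM fit. IGF1R, the IGF receptor, had 10.8, 10.6 and 9.51 CPM in vehicle and 216, 207 and 218 with R1881 (log2 4.37, SE 0.0665, adjusted p = 7.94e-26 by edgeR). The insulin receptor INSR was at 26.3 and 25.8 CPM (log2 -0.03, 95% interval -0.251 to 0.189) and did not pass. INPP4B, a phosphatase of PI3K lipids, had 2.99, 3.88 and 5.35 CPM in vehicle and 49.7, 48.7 and 46.6 with R1881 (log2 3.56, SE 0.146), and the kinase SGK1 rose from 3.58 to 46.7. SESN3, a stress-induced restraint on mTOR complex 1, had 356, 371 and 346 CPM in vehicle and 96, 99 and 103 with R1881 and fell by 1.85 (SE 0.0495), and SESN1 fell from 222 to 77.5, while SESN2 was at log2 0.03 (adjusted p = 0.751). The regulatory subunit PIK3R3 fell from 314 to 91.2 CPM and the mTOR inhibitor DEPTOR from 27.5 to 8.8. CAMKK2, a calcium-activated kinase upstream of AMPK, had 88.4, 97.6 and 89.6 CPM in vehicle and 289, 307 and 280 with R1881 (log2 1.67, SE 0.0562), and mTOR itself, MTOR, rose from 69.6 to 221.

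Receptors of other growth factors and their feedback inhibitors also moved. Of 56 tested members 26 rose and 16 fell (median log2 0.0951); library totals gave 17 and 25 (median -0.142), and the median was -0.00227 in the TPM fit. ERRFI1, an inhibitor of the EGF receptor, had 32.4, 26 and 27.8 CPM in vehicle and 356, 380 and 354 with R1881 (log2 3.66, SE 0.0592), and LRIG1, another inhibitor of ERBB receptors, rose from 86.5 to 596 CPM. EGFR rose from 59.1 to 131 and ERBB2 fell from 227 to 116. MERTK, a receptor for GAS6, rose from 5.64 to 70.7 CPM and GAS6 fell from 15.4 to 4.83. MAPK3 and MAPK8 were at log2 0.01 and -0.04 and did not pass (adjusted p = 0.949 and 0.68).

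TGF-beta and BMP components rose at type I BMP receptors and fell at several SMADs. Of 41 tested members 16 rose and 14 fell (median log2 0.135); library totals gave 14 and 16 (median -0.102), and the median was -0.0191 in the TPM fit. PMEPA1, a membrane protein that restrains TGF-beta and androgen signalling, had 30.8, 35.1 and 33 CPM in vehicle and 392, 417 and 407 with R1881 (log2 3.62, SE 0.053). BMPR1B had 29.4, 27.9 and 26.8 CPM in vehicle and 121, 120 and 111 with R1881 and BMPR1A rose from 28.1 to 113, whereas the type I receptor ACVR1B was at 46.5 and 51.5 CPM (adjusted p = 0.0665). SMAD3 had 14.6, 17.7 and 15.6 CPM in vehicle and 5.29, 4.31 and 6.44 with R1881, and SMAD7 (adjusted p = 0.0511 by limma in the TPM fit) and SMAD1 fell with log2 -1.34 and -0.96, while SMAD4 rose (0.40) and SMAD2 was at 0.08 (adjusted p = 0.171). ID3 fell from 36.2 to 14.6 CPM and its relative ID2 rose from 19.4 to 44.

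WNT genes fell more often than they rose and NOTCH genes rose more often than they fell. For WNT signalling, 9 of 47 tested members rose and 22 fell (median log2 -0.29); library totals gave 5 and 30 (median -0.523). Among receptors, FZD5 had 24.4, 22.4 and 27.3 CPM in vehicle and 167, 171 and 159 with R1881 (log2 2.74, SE 0.0648) and FZD3 had 48, 51.3 and 51.9 CPM in vehicle and 13.8, 12 and 11.3 with R1881 (log2 -2.02, SE 0.096), each without overlap. The ligand WNT7B rose from 35.2 to 125 CPM, and WLS, which carries WNT proteins to the surface, fell from 31.2 to 8.92. The common target AXIN2 was at log2 0.14 (95% interval -0.238 to 0.514, adjusted p = 0.526). For NOTCH signalling, 20 of 36 tested members rose and 8 fell (median log2 0.319); library totals gave 16 and 12 (median 0.0822). The ligand JAG1 rose from 45.1 to 92.1 CPM and the receptors NOTCH1 (27 to 13.5) and NOTCH3 (57.7 to 30.5, adjusted p = 0.0517 by limma in the TPM fit) fell. HES6, a repressor of the HES family, had 18.4, 24 and 23.8 CPM in vehicle and 70.9, 90.3 and 79.2 with R1881 (log2 1.86, SE 0.114), and HES4 rose from 22.8 to 49.6.

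Cytokine and calcium pathways were mixed. In cytokine receptors and JAK-STAT signalling, 19 of 52 tested members rose and 16 fell (median log2 0.00489); library totals gave 17 and 27 (median -0.232), and the median was -0.00637 in DESeq2, -0.00615 in RLE scaling, -0.206 in the TPM fit. LIFR, the receptor of leukaemia inhibitory factor, had 40.3, 43.3 and 34 CPM in vehicle and 620, 606 and 602 with R1881 (log2 3.96, SE 0.05), while its signalling partner IL6ST was at 207 and 211 CPM (log2 0.03, 95% interval -0.0705 to 0.129). The feedback inhibitor SOCS2 had 9.56, 10.5 and 7.88 CPM in vehicle and 101, 104 and 96.8 with R1881 (log2 3.43, SE 0.0945), and the scavenging chemokine receptor ACKR3 had 177, 175 and 182 CPM in vehicle and 15.1, 18.4 and 13.7 with R1881 (log2 -3.50, SE 0.0759). The inhibitor NFKBIA rose from 33.8 to 99.5 CPM and NFKB1 fell from 91.8 to 39.8. In calcium and cAMP signalling, 27 of 70 tested members rose and 28 fell (median log2 -0.0593); library totals gave 17 and 39 (median -0.296). In the trimmed-mean fit 17 fell at least 2-fold and 6 rose at least 2-fold. OPRK1, the kappa opioid receptor, had 85.5, 90.4 and 85.8 CPM in vehicle and 2.08, 2.06 and 1.95 with R1881 (log2 -5.41, SE 0.121), and the calcium pump ATP2B1 had 279, 292 and 272 CPM in vehicle and 93.5, 93.7 and 94.2 with R1881 (log2 -1.58, SE 0.0463). Adenylyl cyclase ADCY1 fell from 46.9 to 9.71 CPM and the phosphodiesterase PDE4D from 11.7 to 2.21. The scaffold AKAP12 held 3 counts over the vehicle libraries and 176 over the R1881 libraries, a ratio of 75.9 (95% counting interval 25.5 to 372).

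Regulators of entry into S phase fell more often than they rose, and cyclin-dependent kinase inhibitors did not move as 1 group. Of 61 tested members 11 rose and 36 fell (median log2 -0.434); library totals gave 6 and 46 (median -0.671). With trimmed-mean scaling 18 members fell at least 2-fold. CCNE2, a cyclin of the G1/S transition, had 32.4, 26.4 and 25.6 CPM in vehicle and 4.91, 4.5 and 4.88 with R1881 (log2 -2.56, SE 0.152), and the factor E2F1 had 42.9, 45.8 and 45.5 CPM in vehicle and 14.9, 12.9 and 13.1 with R1881 (log2 -1.71, SE 0.0921). The repressive members E2F7 and E2F8 fell with log2 -1.99 and -2.02, MYC from 149 to 78.1 CPM and CDKN2C, an inhibitor, from 33.4 to 16.2. CDKN1A rose (0.72) and so did CDKN1B (0.27, and 0.04 under library totals). RB1 was at log2 0.08 (95% interval -0.0246 to 0.189, adjusted p = 0.172).

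Chromatin regulators fell more often than they rose, among them several that act at replication forks. Of 97 tested members 20 rose and 52 fell (median log2 -0.185); library totals gave 8 and 73 (median -0.422). UHRF1, which recruits the maintenance DNA methyltransferase, had 46.6, 41.5 and 44 CPM in vehicle and 8.5, 8.25 and 11.7 with R1881 (log2 -2.22, SE 0.116), and DNMT1 itself fell from 128 to 68.3 CPM. The remodeller HELLS (26.1 to 5.4), the histone chaperones ASF1B (34.7 to 8.99), CHAF1A (58 to 20.8) and CHAF1B (45.5 to 17.9) and the Polycomb methyltransferase EZH2 (40.1 to 20.3) fell. Linker histone H1F0 rose from 133 to 268 CPM and the lysine demethylase KDM7A from 21.5 to 50.4. ARID1A and SMARCA5, remodelling subunits, were at 129 and 129 CPM and at 134 and 133 CPM (adjusted p = 0.968 and 0.825). Ribosome biogenesis showed no 2-fold change in any of its 60 tested members: 13 of 60 tested members rose and 21 fell (median log2 -0.0436); library totals gave 5 and 38 (median -0.281). The largest fall was in POLR1E, a subunit of RNA polymerase I (37.1 to 20 CPM, log2 -0.89), and IMP3, a processing factor of the small subunit, was among the rises (71.5 to 101, 0.50).

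Clock genes, apoptosis regulators and adhesion genes completed the lists. In the circadian clock, 5 of 23 tested members rose and 13 fell (median log2 -0.299); library totals gave 3 and 14 (median -0.537). PER1, a clock repressor with known steroid receptor control, had 6.27, 6.76 and 7.58 CPM in vehicle and 35.9, 36.5 and 32.4 with R1881 (log2 2.34, SE 0.119), PER3 fell from 39.4 to 20.8, and the drivers CLOCK and ARNTL were at log2 -0.01 and 0.14 (adjusted p = 0.886 and 0.471). In apoptosis, 18 of 51 tested members rose and 19 fell (median log2 0.0394); library totals gave 11 and 28 (median -0.198), and the median was -0.142 in the TPM fit. BCL2L1, which blocks cell death, rose from 110 to 228 CPM, while BCL2 had 8.81, 9.63 and 7.58 CPM in vehicle and 0.945, 3 and 2.54 with R1881 and fell by 2.00 (SE 0.288). BMF, a death-promoting member of that family, had 16.9, 18.3 and 19.2 CPM in vehicle and 3.02, 3.19 and 1.56 with R1881 (log2 -2.79), and MCL1 was at log2 -0.07 (adjusted p = 0.105, and 0.0259 as lower with only the 6 control libraries). In epithelial junctions, 32 of 64 tested members rose and 16 fell (median log2 0.176); library totals gave 22 and 25 (median -0.0599). OCLN, a tight junction protein, had 199, 198 and 192 CPM in vehicle and 67.3, 59.8 and 58.9 with R1881 (log2 -1.66, SE 0.0539), CLDN8 rose from 8.96 to 48.4 CPM, the cadherin CDH26 fell from 20.4 to 2.08, and CDH1, E-cadherin, was at 548 and 615 CPM (log2 0.17, -0.07 under library totals). In axon guidance and neural adhesion, 12 of 57 tested members rose and 28 fell (median log2 -0.505); library totals gave 11 and 38 (median -0.742). LRRN1, a neuronal leucine-rich repeat protein, had 347, 336 and 343 CPM in vehicle and 23.6, 24.6 and 21.7 with R1881 (log2 -3.88, SE 0.0586); RGMB rose from 53.1 to 126 and EFNB2, an ephrin ligand, from 133 to 275.

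Hormone also changed which transcripts some genes used, a measure that the gene counts do not hold. Of 8587 genes with several transcripts tested, 67 (0.78%) passed edgeR's test of unequal transcript change and had a transcript whose share of the gene's counts moved by at least 20 percentage points without overlap of the libraries; 217 (2.53%) passed the test alone. Without vehicle replicate 1 the count of 67 became 44. NUP93, a nuclear pore subunit, had its shorter transcript NUP93-210, which starts at chr16:56781658 (GRCh38), at 58.8, 60 and 58% of the gene's counts in vehicle and 20.9, 11.7 and 20.7% with R1881. The longer NUP93-201, which starts upstream at chr16:56730105, had 36.6, 37.5 and 40.4% and 77.6, 87.4 and 75.7% (adjusted p = 6.64e-06 by edgeR), while the gene as a whole fell by 1.31 on the log2 scale. The 2 transcripts exchanged rank in all 3 libraries of each group. CTBP1, a corepressor, had its main coding transcript CTBP1-203 at 64, 58.3 and 54.5% in vehicle and 19.5, 20 and 19% with R1881, and the coding transcript CTBP1-209 at 1.1, 1.62 and 2.16% and 21.2, 23.2 and 19.8% (adjusted p = 9.43e-18 by edgeR). Several of its retained-intron and noncoding transcripts gained small shares at the same time. C19orf48, which lies beside the kallikreins, had the coding transcript C19orf48-201 at 86.9, 82.1 and 79.3% in vehicle and 38.6, 44 and 41.6% with R1881, and the noncoding C19orf48-216 at 2.87, 3.71 and 6.76% and 48, 42.2 and 46.3% (adjusted p = 8.64e-14 by edgeR). In TPM, which corrects for length, the NUP93-210 share went from 56 to 15.9%, that of CTBP1-203 from 34.6 to 7.32%, that of CTBP1-209 from 0.532 to 4.48% and that of C19orf48-201 from 75.1 to 40.9%.

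Shares of the other 5 named genes varied more between libraries. The receptor phosphatase PTPRK had PTPRK-207 at 91.5, 86.6 and 88.7% in vehicle and 33, 58.4 and 62.5% with R1881. ANKRD37 had its coding transcript ANKRD37-201 at 9.3, 36.8 and 56.7% in vehicle and 74.5, 83.8 and 84.1% with R1881. For PKD1, the polycystin-1 gene, which has near-identical pseudogene copies, the PKD1-201 share was 91.1, 77.8 and 72.8% and then 1.39, 39.3 and 43.6%, and for DIP2C the DIP2C-202 share was 46.3, 74.7 and 9.23% in vehicle and at or near 0 with R1881. In TTN, the muscle gene titin, the share of TTN-203 was 94, 91.8 and 94% in vehicle and 0, 30.5 and 0% with R1881, with TTN-212 taking 88.9, 58.3 and 85.9%. In TPM the PKD1-201 share went from 29.8 to 13%, less than 20 percentage points. The calls of 4 of these 5 genes were lost under several alternatives. With only the 6 control libraries the adjusted p by edgeR was 0.305 for PKD1, 0.105 for ANKRD37 and 0.128 for PTPRK, and with no filter 0.188, 0.304 and 0.235. Without 1 library the adjusted p by edgeR was 0.0558 to 0.147 for PKD1 without each vehicle library and 0.055 to 0.095 without each R1881 library; for ANKRD37 it was 0.215 to 0.393 in 5 of the 6 cases, for DIP2C 0.0802 to 0.104 in 5 of the 6, and for PTPRK 0.0829 to 0.0872 without vehicle replicate 1, vehicle replicate 2 or R1881 replicate 1. TTN passed without any 1 library (adjusted p 3.45e-05 to 0.0204 by edgeR), as did NUP93, C19orf48 and CTBP1. Transcripts of a gene share most of their sequence, so their counts are estimates with more error than those of the gene.

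**Figure D4:**
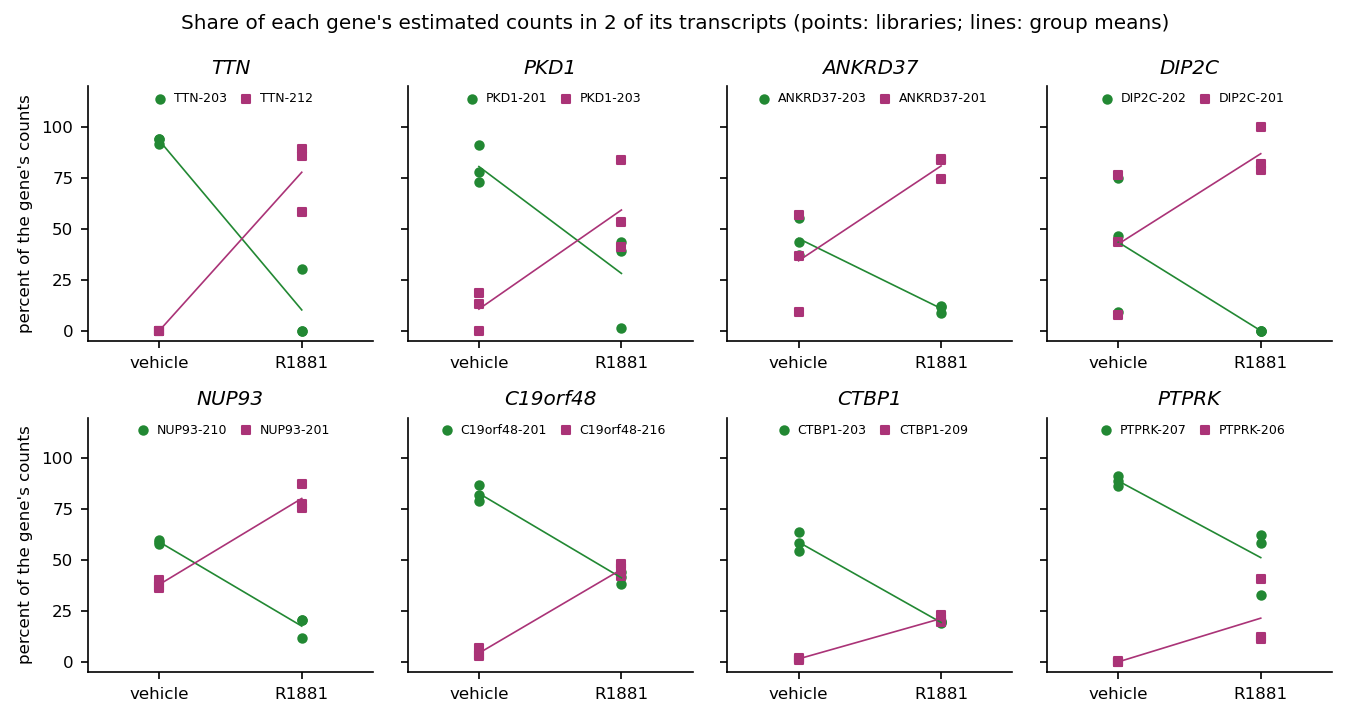
Share of a gene's estimated counts (percent) held by the transcript that lost most and the transcript that gained most, for 8 genes, in 3 vehicle and 3 R1881 libraries of control siRNA; points are libraries and lines join group means. NUP93, C19orf48 and CTBP1 show tight points that cross or meet, whereas DIP2C and PKD1 libraries of 1 group spread widely.

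Some genes that changed at least 2-fold in the same direction lay next to each other on chromosomes. Among 12055 pairs of neighbouring tested protein-coding genes, 350 (2.9%) were both at least 2-fold higher or both at least 2-fold lower, and 62 runs of 3 or more such neighbours were found, 31 higher and 31 lower. Of all tested genes 7.47% were at least 2-fold higher and 9.31% at least 2-fold lower, so some pairs arise among unrelated genes. The pairs and runs also include overlapping genes and close copies, which may share reads. Whether changed genes cluster was not tested. The longest held 6 genes on chr16:79585843-81096284 (GRCh38): MAF, CDYL2, CMC2, CENPN, AC092718.8 and ATMIN. There CENPN, a centromere protein, had 45, 49.7 and 45 CPM in vehicle and 697, 708 and 712 with R1881 (log2 3.92), CDYL2, a chromodomain protein, 49.7, 55.8 and 58.3 CPM in vehicle and 270, 264 and 266 with R1881 (log2 2.29), and ATMIN, a zinc-finger factor of the DNA damage response, rose with log2 1.05. AC092718.8 overlaps CENPN and ATMIN, and CMC2 overlaps CENPN, so that they may share reads. The kallikrein run, chr19:50797704-50910738, held C19orf48, KLK15, KLK3, KLK2 and KLK4. KLK2, which activates prostate-specific antigen, had 7.17, 4.89 and 5.2 CPM in vehicle and 830, 874 and 843 with R1881, and KLK4 had 26.7, 23.6 and 24.4 CPM in vehicle and 286, 285 and 291 with R1881 (log2 7.20 and 3.53), while KLK15 held 3 counts over the vehicle libraries and 23 over the R1881 libraries, a ratio of 9.92 (95% counting interval 3 to 51.6).

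A run of lower genes on chr9:104094260-105552433 held SMC2, NIPSNAP3A, ABCA1, SLC44A1 and FSD1L. SLC44A1, a choline carrier, had 256, 254 and 246 CPM in vehicle and 42.9, 41 and 46.6 with R1881 (log2 -2.54, SE 0.0524), and NIPSNAP3A had 270, 294 and 260 CPM in vehicle and 49.9, 40.9 and 51.5 with R1881 (log2 -2.54, SE 0.0694). Another, on chr3:164978898-167381346, held SI, SLITRK3, BCHE and ZBBX. SLITRK3, a synaptic adhesion protein, had 117, 132 and 124 CPM in vehicle and 8.5, 9.93 and 11.1 with R1881 (log2 -3.66) and BCHE, butyrylcholinesterase, 289, 293 and 289 CPM in vehicle and 35.1, 31.3 and 31.6 with R1881 (log2 -3.15). The run on chr1:19312326-19658456 held PQLC2, CAPZB, MINOS1, NBL1 and MINOS1-NBL1, of which the last 4 overlap a neighbour and may share reads; CAPZB, an actin-capping subunit, had 117, 112 and 122 CPM in vehicle and 473, 452 and 457 with R1881 (log2 1.98, SE 0.0437). In the runs on chromosomes 16, 19, 9 and 3 no gene had overlapping groups.

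**Figure D5:**
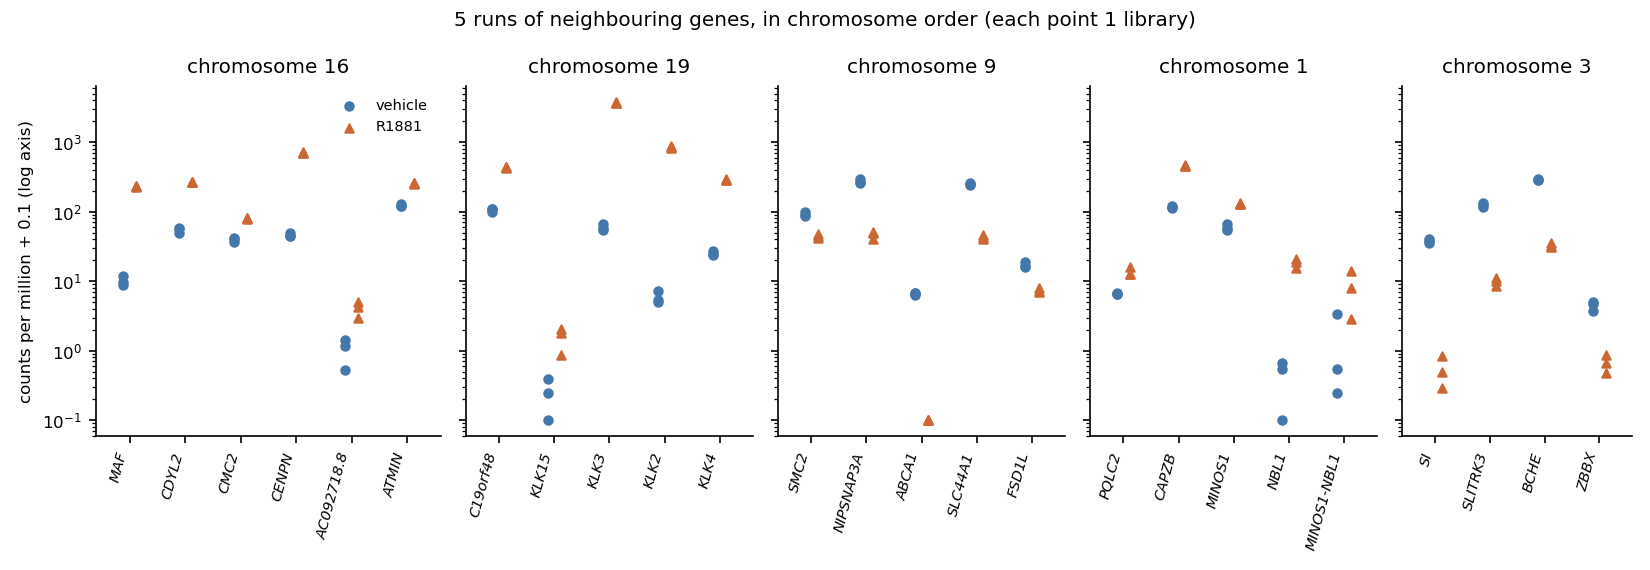
CPM plus 0.1 (log axis) in each control siRNA library for the genes of 5 runs of neighbours that changed at least 2-fold in 1 direction, in chromosome order; circles are vehicle and triangles R1881 libraries. The runs on chromosomes 16, 19 and 1 are higher and those on chromosomes 9 and 3 lower with R1881, at levels that differ widely from gene to gene.

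The response under control siRNA was set against that under the other siRNAs by the test of the difference itself. With NFYA siRNA 91 of 12601 genes (0.722%) had a different response to R1881 by edgeR at adjusted p under 0.05. The difference was above 0 in 42 and below in 49, with a median size of 0.373 on the log2 scale, and 1508 genes had an unadjusted p under 0.05. Of the 91, 85 had passed in control siRNA. In 26 of the 91 the difference had the sign of the control response, so the response with the knockdown was larger in the same direction. The count was 57 without control vehicle replicate 2, 43 without control R1881 replicate 2 and 57 without control R1881 replicate 3. NFYA siRNA vehicle replicate 3 had 2.8511% of its counts in the rRNA-like gene AC010970.1, against 0.0902 to 0.4236% in the other libraries of the fit. It also had the lowest depth of the fit, 4416653 counts. The count without this library was not tested, and that without rRNA-like genes is not given here. The 1508 are not a count of differing genes, since a share of about 0.05 would have an unadjusted p under 0.05 if no response differed. The 5 named by the smallest adjusted p were CITED2, GLUL, SLC1A5, UGT2B11 and SLC7A11. UGT2B11 had 17.3, 16.1 and 18.9 CPM in control vehicle and 104, 114 and 117 in control R1881, against 18.5, 13.8 and 15.6 and then 196, 209 and 200 with NFYA siRNA. Its response was larger by 0.98 (SE 0.134, adjusted p = 0.000476). CITED2, a transcriptional coregulator, went from a mean of 170 to 219 CPM in control and from 128 to 231 with NFYA siRNA, a response larger by 0.49 (SE 0.0585), and GLUL, glutamine synthetase, from 198 to 439 and from 147 to 430, larger by 0.41 (SE 0.0524). The amino acid carriers SLC1A5 and SLC7A11 had smaller responses with NFYA siRNA, by -0.44 (SE 0.0583) and -0.52 (SE 0.0732). SLC1A5 went from 111 to 387 CPM in control and from 143 to 368 with NFYA siRNA, and SLC7A11 from 192 to 437 and from 242 to 386. In 4 of the 5 the vehicle level with NFYA siRNA lay on the opposite side of control from the change in response, and for UGT2B11 the vehicle levels of the 2 siRNAs overlapped.

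With KLF5 siRNA 2 of 12733 genes (0.0157%) had a different response by edgeR, 854 had an unadjusted p under 0.05, and KLF5 siRNA with vehicle had only 2 libraries. The count was 1 without control vehicle replicate 1 or control R1881 replicate 3, 6 without control R1881 replicate 2, and 8 by DESeq2. The 854 are likewise not a count of differing genes, since a share of about 0.05 would have such a p if no response differed. KLK3 had 65.5, 54.6 and 58.5 CPM in control vehicle, 3645, 3777 and 3667 in control R1881, 33.2 and 35.8 in KLF5 siRNA vehicle and 3317, 3363 and 3261 in KLF5 siRNA R1881. Its response was larger with KLF5 siRNA by 0.63 (SE 0.0783, adjusted p = 0.000752), and both its vehicle and its R1881 levels were below those of control libraries. The other gene was the readthrough transcript ATP6V1G2-DDX39B, with 74.7 and 42.3 CPM in control vehicle and R1881 and 61.6 and 63.1 with KLF5 siRNA, whose counts may be shared with its parent genes; its difference of 0.86 (adjusted p = 0.012) was at adjusted p = 0.062 without control vehicle replicate 1 and 0.0728 without control R1881 replicate 3. Both sets of differences rest on the same 6 control libraries.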

How the data were processed

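RNA of LNCaP cells was sequenced from stranded libraries, per the labels' protocols. FastQC, Trimmomatic, kallisto, DESeq2 and GRCh38 are named in the submitters' processing notes, without versions or roles. Estimated counts per gene, as deposited, are not normalized. Companion deposited tables join, per gene and per transcript, the estimated count, the TPM value and a number without a name, which was not used. Counts were rounded to whole numbers, and symbols and positions were taken from GENCODE v29 by identifier (34846 of 34912 genes).

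The 6 control libraries were fitted with the 6 of NFYA siRNA, 4 groups in all, by edgeR 4.0.16 in R 4.3.3 (trimmed-mean scaling, filterByExpr, quasi-likelihood F test, Benjamini-Hochberg adjustment over 12601 genes, threshold 0.05). The KLF5 siRNA comparison used its own table of 11 libraries. A standard error is the log2 change over the square root of F. Transcript usage was tested by edgeR's diffSpliceDGE. Tables were made with Python 3.11.15. On counts simulated for this comparison (12269 genes) the test recovered 73.1% of 67 1.5-fold, 82.1% of 67 2-fold and 97% of 66 4-fold changes, with 19 false calls. These false calls made up a larger share of all calls than the threshold of 0.05. Only the listed genes were changed, about as often up as down, whereas 62.9% of genes passed in the data. The simulation therefore does not cover scaling when most genes move. Intervals on counts cover counting error only; a count of 3 over a group was the floor.

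The genes, lists and tests were chosen with earlier results of these data known. Named genes are the 12 largest increases and decreases in mean CPM, the 3 largest rises and falls of each list (of those, a part is printed) with at least 5 CPM, the 8 largest share changes in genes of at least 20 CPM, the 5 smallest adjusted p of each interaction and the 5 longest neighbour runs; other list members are named with their values. Some genes that these rules select are not reported here. Alternatives were the 6 control libraries alone, DESeq2 1.42.0, relative-log scaling, library totals, no filter, limma 3.58.1 on log2(TPM + 1), the control libraries fitted with the KLF5 siRNA table, leaving out mitochondrial and rRNA-like genes, and leaving out each control library.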

Additional observations from a re-analysis of the deposited data

Results flagged for a closer look

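The response to R1881 differed between siRNAs by an interaction test in edgeR for 7 named genes, each given as the log2 response with the knockdown minus that with control siRNA. With NFYA siRNA the difference was 0.4933 for CITED2, 0.4056 for GLUL, -0.44 for SLC1A5, 0.9811 for UGT2B11 and -0.5199 for SLC7A11. With KLF5 siRNA it was 0.6286 for KLK3 and 0.8576 for the readthrough gene ATP6V1G2-DDX39B. The log2 responses with the knockdown were 0.855, 1.551, 1.362, 3.659 and 0.67 for the 5 NFYA genes in that order, and 6.597 and 0.049 for the 2 KLF5 genes. Each is the control response in the fit with the NFYA siRNA libraries plus the difference. For the 2 KLF5 genes the difference came from the separate KLF5 siRNA fit, so these 2 values join 2 fits and are approximate.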

How the results depend on the processing

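Counts of at least 2-fold changes stayed within 1.5 times under every alternative run, though some came near that limit. Genes at least 2-fold higher went from 941 to 629 in the TPM fit, 666 under library totals and 1075 with no filter. Those at least 2-fold lower went from 1173 to 958, 1713 and 1355 in the same order. Other counts moved. Under library totals 2481 genes rose and 6314 fell, against 4051 and 3881, and limma on log2(TPM + 1) had 2360 rising. The NFYA siRNA difference went from 91 to 326 genes with no filter and ranged from 43 to 94 when 1 control library was left out. For KLF5 siRNA the 2 genes became 8 with DESeq2 and 106 with no filter, and 1 to 6 when 1 control library was left out. Genes with changed transcript usage went from 67 to 38 with no filter and to 122 with a limit of 10 percentage points, and ranged from 44 to 70 with 1 library left out. The cause of these moves was not tested. Some log2 changes of named genes had the opposite sign and passed in at least 1 of the 2 fits compared. Under library totals they were -0.069 (CDH1), -0.21 (IL6ST), -0.23 (MAPK3), -0.15 (RB1), -0.18 (RXRB), -0.13 (SEC23A), -0.21 (SESN2), -0.15 (SMAD2), -0.23 (SPINT2), -0.19 (SPTLC1) and -0.033 (TMED4). In the TPM fit they were -1.1e-05 (CDH1), -0.39 (SEC23A) and -0.19 (SPINT2). Over named genes and alternatives 3376 of 3521 values kept direction and side of the threshold, 52 lost the call and 26 gained it. Another 14 were the log2 changes of opposite sign listed above, and 53 changed sign but not side of the threshold. For transcript usage the value was the largest share change, whose sign depends on which transcript is largest. Sign changes of this kind are among the 53 for NUP93 and C19orf48, whose calls held. Those for DIP2C and PKD1 are among the 52. Many named genes were picked for large changes in these same libraries. This count therefore does not measure how stable the calls are over all genes. No paired analysis was possible because the numbers in the labels run over all samples and are not repeated between groups. Depth (5581124 to 6411869 counts per library) limits transcript shares and genes near the floor.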
